A study of Mus musculus with 6 samples.

Results

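The 9 genes described here are members of opposing routes of sugar metabolism: Fbp1, Pck1, G6pc, and Khk on the side of glucose production and fructose use, and Hk1, Hk2, Pkm, Ldha, and Slc2a1 on the side of glucose uptake and glycolysis. They were chosen by symbol from the 28208 genes listed in the count matrices of all 6 kidneys, and all 9 were listed in each of the 6 matrices. Their UMIs (unique molecular identifiers, which count captured RNA molecules) were summed per kidney within tubular segments, within proximal tubular cells carrying at least 2 UMIs of the injury gene Havcr1, and within leukocytes. Over all barcodes the members held between 7211 UMIs for Hk2 and 163923 for Fbp1.

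The study sequenced single cells from 6 mouse kidneys with a droplet method, 2 each in a naive, a rejecting, and a tolerized group, and each kidney has its own matrix. Naive kidneys came from wild-type C57BL/6 (B6) mice aged 10 to 12 weeks and were not transplanted. Rejecting kidneys were BALB/c kidneys from mice aged 6 to 7 weeks that were placed into bilaterally nephrectomized wild-type B6 recipients without further treatment and taken on day 15. Tolerized kidneys differed in that the recipient also received infusions of BALB/c splenocytes treated with ethylenecarbodiimide, a cross-linker that makes the infused donor cells apoptotic. The labels give male as the sex of every sample, but the study's methods name both male and female BALB/c donors. The sex of the transplanted kidneys is therefore uncertain and may differ between groups. Parenchymal cells of a transplanted kidney are BALB/c cells, whereas its infiltrating leukocytes can come from the B6 recipient as well as from the donor.

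Total UMIs per kidney lay between 34874702 and 96803926, over 8532 to 13378 barcodes. After filters 49797 cells were kept, and 44492 cells outside called doublets fell into named classes, of which 24497 were tubular and 18748 were leukocytes. Median mitochondrial UMIs of kept cells lay between 5.38% and 25.5%, with the 2 naive kidneys highest at 25.5% and 24.9%. The naive kidneys shared 111 barcodes with each other, pairs of transplanted kidneys shared 18 to 35, and a naive and a transplanted kidney shared at most 4. Naive and transplanted kidneys also differed in strain, in age, in the gene list of their matrix (28692 against 31053 genes), and in the CellRanger version named in the file header, which was 3.0.1 for transplanted kidneys and was not given for naive ones. Every difference between naive and transplanted kidneys given here therefore cannot be told apart from these. The study ran its kidneys in separate experiments, and the labels do not give the experiment of a kidney. They also do not say whether replicates were separate animals, so p-values measure the spread between these samples.

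Kidney cortex and liver are the organs that release new glucose into the blood. In the proximal tubule, Pck1 (phosphoenolpyruvate carboxykinase) commits oxaloacetate to the route, Fbp1 (fructose-1,6-bisphosphatase) reverses the phosphofructokinase step, and G6pc (the catalytic subunit of glucose-6-phosphatase) frees glucose for export. Khk (ketohexokinase) phosphorylates fructose and lets it enter the same pool of triose phosphates. Opposite steps belong to the hexokinases Hk1 and Hk2, which trap glucose in the cell, to Pkm, whose pyruvate kinase forms the last ATP of glycolysis, and to Ldha, the lactate dehydrogenase subunit that favours the reduction of pyruvate to lactate. Slc2a1 encodes the basolateral glucose carrier GLUT1. Distal segments use glucose as fuel, and activated leukocytes are known to raise glycolysis.

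The files give the members as Fbp1 (ENSMUSG00000069805, chr13:62864753-62888282, minus strand), Pck1 (ENSMUSG00000027513, chr2:173153048-173159273, plus strand), G6pc (ENSMUSG00000078650, chr11:101367561-101377903, plus strand), and Khk (ENSMUSG00000029162, chr5:30921431-30931248, plus strand). On the glycolytic side they are Hk1 (ENSMUSG00000037012, chr10:62268855-62379908, minus strand), Hk2 (ENSMUSG00000000628, chr6:82725025-82774454, minus strand), Pkm (ENSMUSG00000032294, chr9:59656368-59679375, plus strand), Ldha (ENSMUSG00000063229, chr7:46841475-46855627, plus strand), and Slc2a1 (ENSMUSG00000028645, chr4:119108711-119137983, plus strand). All are protein-coding genes, and the positions are those of GRCm38. Genes of glycolysis such as Ldha, Pkm, and Pgk1 have processed pseudogenes of near-identical sequence, so their counts are uncertain where reads could be shared with such copies.

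The promoters of the genes whose levels set the proximal tubule apart are shown because the 4 gluconeogenic and fructose genes shared 1 pattern over cell classes, whereas Ldha, shown for contrast, did not. RefSeq promoter windows of GRCm38.p6 run from 250 bases before to 50 bases after the start site, and all 9 members matched, with 12 windows in all. Capitals mark a match on either strand to the HNF1 half-site GTTAAT, the cAMP response element core TGACG, or the hypoxia response element core ACGTG.
Fbp1 (chr13:62888233-62888532, minus strand): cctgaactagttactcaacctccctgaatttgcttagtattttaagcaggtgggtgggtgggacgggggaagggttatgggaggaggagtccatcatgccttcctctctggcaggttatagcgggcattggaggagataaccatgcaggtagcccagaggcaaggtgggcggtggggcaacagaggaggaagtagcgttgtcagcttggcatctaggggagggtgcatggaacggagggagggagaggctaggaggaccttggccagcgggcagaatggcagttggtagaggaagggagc
Pck1 (chr2:173152823-173153122, plus strand): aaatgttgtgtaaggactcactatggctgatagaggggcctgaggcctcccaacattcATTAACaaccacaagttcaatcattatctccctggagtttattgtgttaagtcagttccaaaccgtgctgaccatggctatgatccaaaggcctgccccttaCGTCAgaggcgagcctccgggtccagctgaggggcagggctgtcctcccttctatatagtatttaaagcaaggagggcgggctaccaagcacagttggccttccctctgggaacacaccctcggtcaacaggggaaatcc
G6pc (chr11:101367466-101367765, plus strand): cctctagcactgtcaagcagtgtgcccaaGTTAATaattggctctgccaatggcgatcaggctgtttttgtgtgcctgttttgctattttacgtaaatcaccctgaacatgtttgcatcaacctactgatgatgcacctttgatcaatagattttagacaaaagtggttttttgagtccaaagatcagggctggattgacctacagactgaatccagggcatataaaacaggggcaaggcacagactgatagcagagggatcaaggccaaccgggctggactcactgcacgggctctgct
Khk (chr5:30921309-30921608, plus strand): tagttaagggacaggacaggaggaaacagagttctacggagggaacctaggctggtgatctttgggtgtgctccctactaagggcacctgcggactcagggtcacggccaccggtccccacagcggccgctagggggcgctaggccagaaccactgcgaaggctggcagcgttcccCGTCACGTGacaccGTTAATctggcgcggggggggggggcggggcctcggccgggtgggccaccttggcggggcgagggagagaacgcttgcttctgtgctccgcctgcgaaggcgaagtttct
Ldha (chr7:46845554-46845853, plus strand): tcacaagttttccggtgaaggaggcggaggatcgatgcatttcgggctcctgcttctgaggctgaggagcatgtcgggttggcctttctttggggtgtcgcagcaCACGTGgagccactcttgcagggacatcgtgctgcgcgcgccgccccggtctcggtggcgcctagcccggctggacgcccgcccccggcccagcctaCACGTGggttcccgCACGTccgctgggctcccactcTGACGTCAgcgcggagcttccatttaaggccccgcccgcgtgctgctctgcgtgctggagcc

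The HNF1 half-site was present in 3 of the 12 windows, 1 each of Pck1, G6pc, and Khk, and in 7.10% of all 32841 promoter windows. In Pck1 it lay at -192, in G6pc at -221, and in Khk at -60 relative to the start site. The cAMP response element core occurred in 6 of the 12 windows, from 5 members (20.8% of all windows), among them Pck1 at -90, Khk, and Ldha. The hypoxia response element core occurred in 6 of the 12 windows, 1 for each of the 5 glycolytic members and Khk (19.6% of all windows), and a palindromic CACGTG was counted on both strands. TGACG and ACGTG matches overlapped in Khk and in Hk2. A match is only a match of letters in this window, and the Fbp1 window held none of the 3 motifs.

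Fbp1, Pck1, G6pc, and Khk were highest in proximal tubule-like cells in every kidney among tubular segments and leukocytes. Levels between classes are given as CPM, the UMIs of a gene per 1000000 UMIs of the class, without further scaling. Per-kidney values run from naive 1 and 2 over rejecting 1 and 2 to tolerized 1 and 2 throughout, and in proximal tubule-like cells Fbp1 reached 849, 773, 890, 1054, 1276, and 1232 CPM. Distal segments are classes like the loop of Henle, distal convoluted tubule, principal cells, and intercalated cells, and the highest Fbp1 level in any of them was 135 CPM, in the loop of naive kidney 2. Pck1 stood at 530, 948, 582, 424, 403, and 623 CPM in the proximal tubule, and its highest distal level was 113 CPM in the same loop sum. The lowest proximal level of either gene thus lay above every distal level.

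G6pc, which releases free glucose, was at 322, 194, 391, 185, 322, and 383 CPM in proximal tubule-like cells, and its distal levels reached 34.8 CPM at most. Khk was at 887, 773, 806, 660, 804, and 592 CPM there. In distal segments Khk lay between 16.5 and 129 CPM, so it also did not overlap with the proximal tubule.

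Hk1, Pkm, and Slc2a1 had the opposite order, and Ldha and Hk2 had neither. Hk1 was at 1.77, 1.97, 2.70, 1.37, 1.92, and 1.95 CPM in proximal tubule-like cells, from 10 to 71 UMIs per kidney. The distal sums held 82.2 to 233 CPM of Hk1, the highest in the loop of Henle of tolerized kidney 1, and every one lay above every proximal value. Pkm was at 11.5, 13.5, 25.7, 11.3, 9.36, and 7.24 CPM in the proximal tubule and at 397 to 826 CPM in distal segments, again without overlap. Slc2a1 was at 5.01, 3.75, 9.62, 9.69, 10.4, and 6.20 CPM in the proximal tubule. Along the distal nephron it was lowest in distal convoluted tubule-like cells (26.2 to 37.3 CPM), higher in the loop of Henle (36.5 to 73.0 CPM) and in intercalated cells (66.7 to 91.4 CPM), and highest in principal cells (143, 154, 247, 140, 146, and 120 CPM). The loop overlapped with its neighbours on both sides of that order, and principal cells overlapped with no other distal segment. Some of these classes also met markers of another segment. The intercalated cluster met 8 intercalated and 7 principal cell markers. The cluster with most naive distal convoluted tubule-like cells met 5 of its own markers and 5 of the loop.

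Ldha, in contrast, was at 460, 538, 396, 402, 398, and 292 CPM in proximal tubule-like cells, a range that overlapped with principal cells (283 to 519 CPM) and intercalated cells (208 to 369 CPM). It was lower in the loop of Henle (90.6 to 208 CPM) and in the distal convoluted tubule (100 to 150 CPM). Hk2, the inducible hexokinase, was nearly absent from tubules. Proximal tubule-like cells held 0 to 6 UMIs of Hk2 per kidney, or 0 to 0.410 CPM, and 0 UMIs in naive kidney 1 allow up to 0.143 CPM if 3 counts are taken as the limit, which covers counting error only. Distal segments had at most 1.65 CPM.

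**Figure D1:**
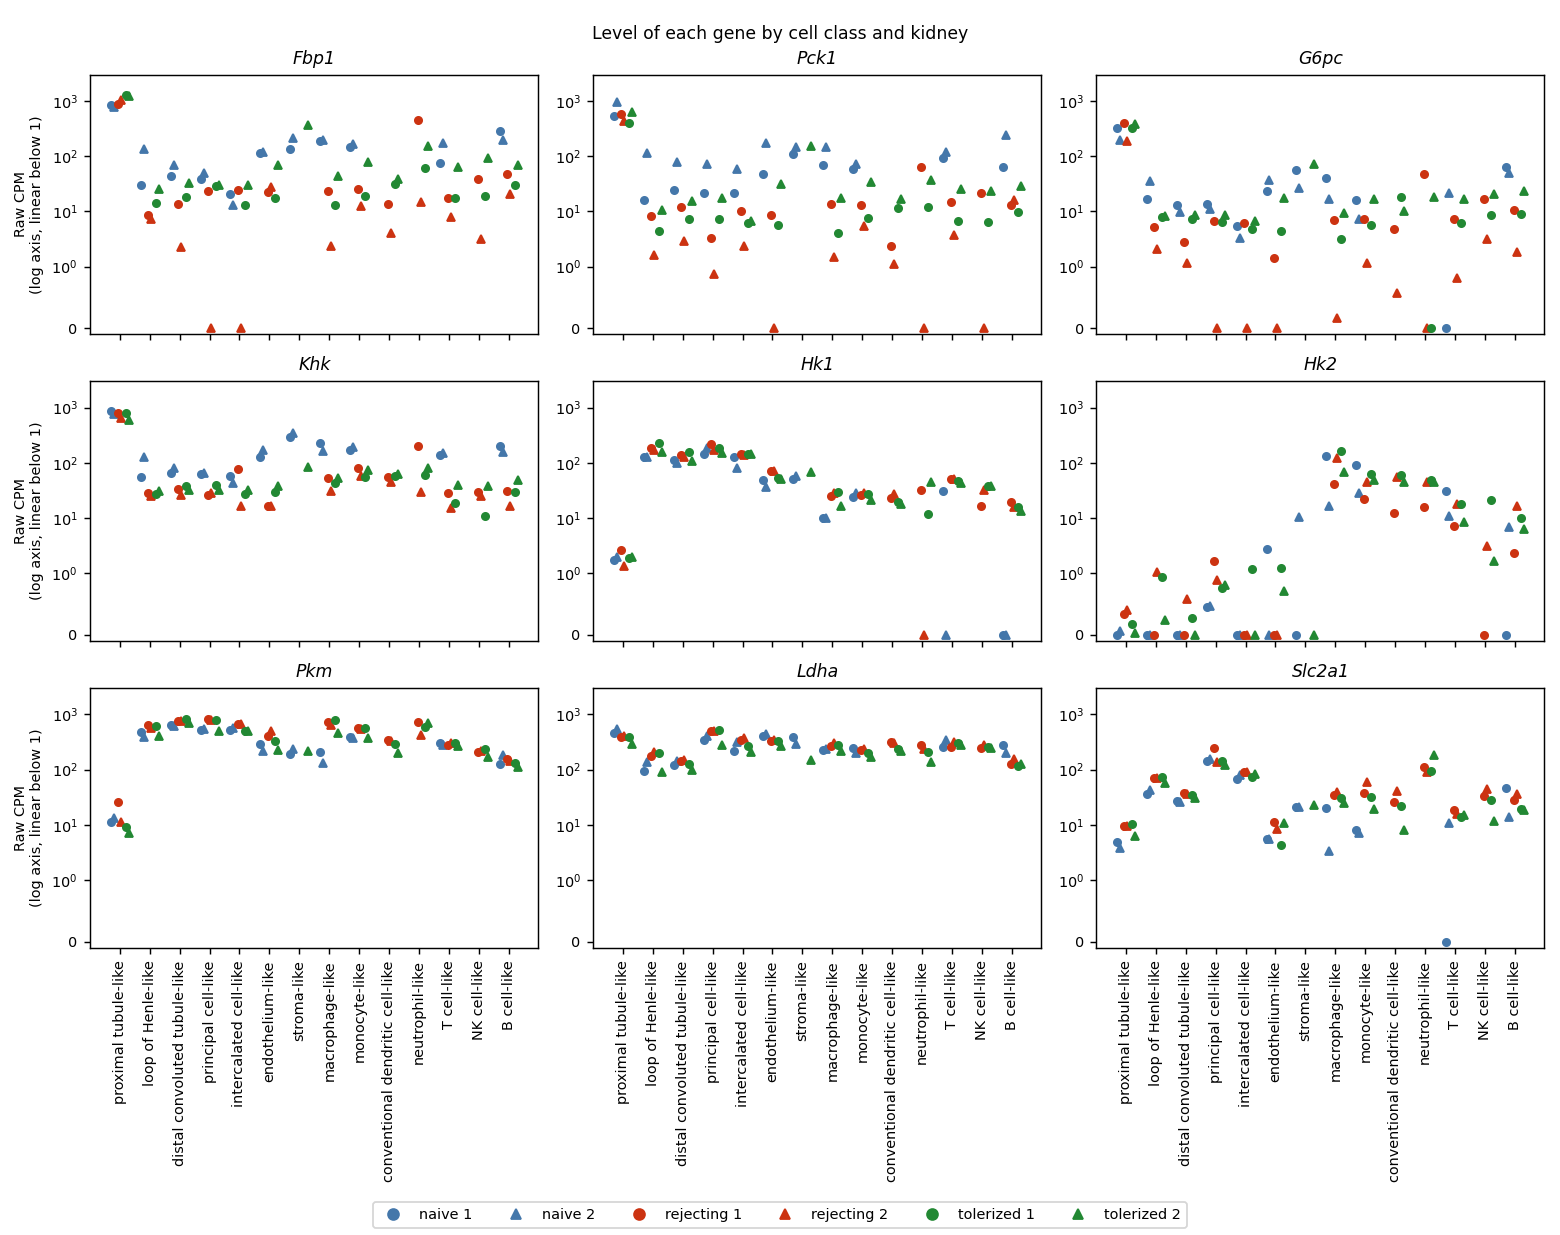
Level of each member (CPM without further scaling, log axis that is linear below 1) by cell class, with 1 point per kidney and classes of at least 20 cells, coloured by group. Fbp1, Pck1, G6pc, and Khk peak in proximal tubule-like cells, Hk1, Pkm, and Slc2a1 are lower there than in every distal segment, Hk2 is seen mainly in myeloid classes, and Ldha stays between 90.6 and 538 CPM in all tubular segments.

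Leukocytes carried the glycolytic members. Macrophage-like cells had Hk2 at 131, 16.6, 41.6, 121, 167, and 67.8 CPM, and the 2 naive values rest on only 39 and 99 cells. Pkm was at 732, 646, 797, and 453 CPM in macrophage-like cells of the transplanted kidneys, and at 211 and 130 CPM in those of the naive kidneys. T cell-like cells of transplanted kidneys had less Hk2 (7.17 to 18.3 CPM), which did not overlap with their macrophage-like cells. Their Hk1 lay between 44.0 and 51.1 CPM, above the 16.5 to 29.99 CPM of macrophage-like cells from the same kidneys. Ldha was close in both, at 255 to 323 CPM in T cell-like and 220 to 308 CPM in macrophage-like cells. Conventional dendritic cell-like cells of the transplanted kidneys held Hk2 at 12.4 to 60.7 CPM. Neutrophil-like cells, seen in transplanted kidneys only, had the highest Slc2a1 of the leukocyte classes in these 4 kidneys, at 111, 89.8, 96.5, and 183 CPM from 35 to 43 cells per kidney.

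RNA released from broken proximal tubular cells can enter the droplets of other cells, and a gene from this source keeps the same ratio to proximal markers in every class of a kidney. Each member was therefore set against the summed CPM of 8 proximal genes (Lrp2, Cubn, Slc34a1, Slc27a2, Slc13a1, Miox, Acsm2, and Slc22a6) and compared with its ratio in the proximal tubule-like cells of that kidney. A value of 1 means the same ratio, and sums with at least 20 cells and at least 5 UMIs due at that ratio were used. For Fbp1 the 22 distal sums gave 0.533 to 2.14 with a median of 1.02, and 20 of them lay between 0.5 and 2. Pck1 lay within those bounds in 16 of 19 distal sums (the lowest at 0.217), and G6pc in 16 of 18 (0.430 to 2.59). In leukocyte classes this held for 31 of 32 sums of Fbp1 (0.666 to 2.32), 24 of 28 of Pck1 (0.445 to 2.56), and 21 of 22 of G6pc (0.398 to 1.81). Endothelial and stromal sums stood within the bounds for Fbp1 in 8 of 8, for Pck1 in 8 of 8, and for G6pc in 7 of 7. Whether the levels outside the proximal tubule came from released RNA was not tested.

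Khk kept that ratio less closely and Ldha did not keep it. Khk stood at 1.25 to 3.78 times the ratio in the 19 distal sums, with a median of 2.16 and 8 sums within the bounds. Among 30 leukocyte sums Khk ranged from 0.587 to 21.5 with a median of 1.76 and 17 sums within the bounds, and of 8 endothelial and stromal sums 6 were within them, with a median of 1.46. Ldha stood at 2.04 to 66.7 times the ratio in distal sums and at 1.95 to 346 in leukocyte classes. In the other direction, the Hk1 of proximal tubule-like cells was set against the distal markers Umod, Slc12a1, Slc12a3, and Aqp2, and stood at 0.982 to 2.19 times the ratio of the distal segments, with 5 of 6 kidneys within the bounds. Proximal Pkm stood at 1.38 to 4.97 times that ratio, with 3 of 6 kidneys within the bounds. Set against leukocyte genes in place of distal ones, proximal Hk1 had 1 sum with enough UMIs due, at 3.69 times the ratio of leukocytes. Proximal Pkm stood at 2.105 to 8.23 times the leukocyte ratio in 4 kidneys, with 0 within the bounds. Proximal Slc2a1 stood at 3.13 to 22.7 times the distal ratio in 5 kidneys. The source of the few Hk1 UMIs of proximal cells was not tested.

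**Figure D2:**
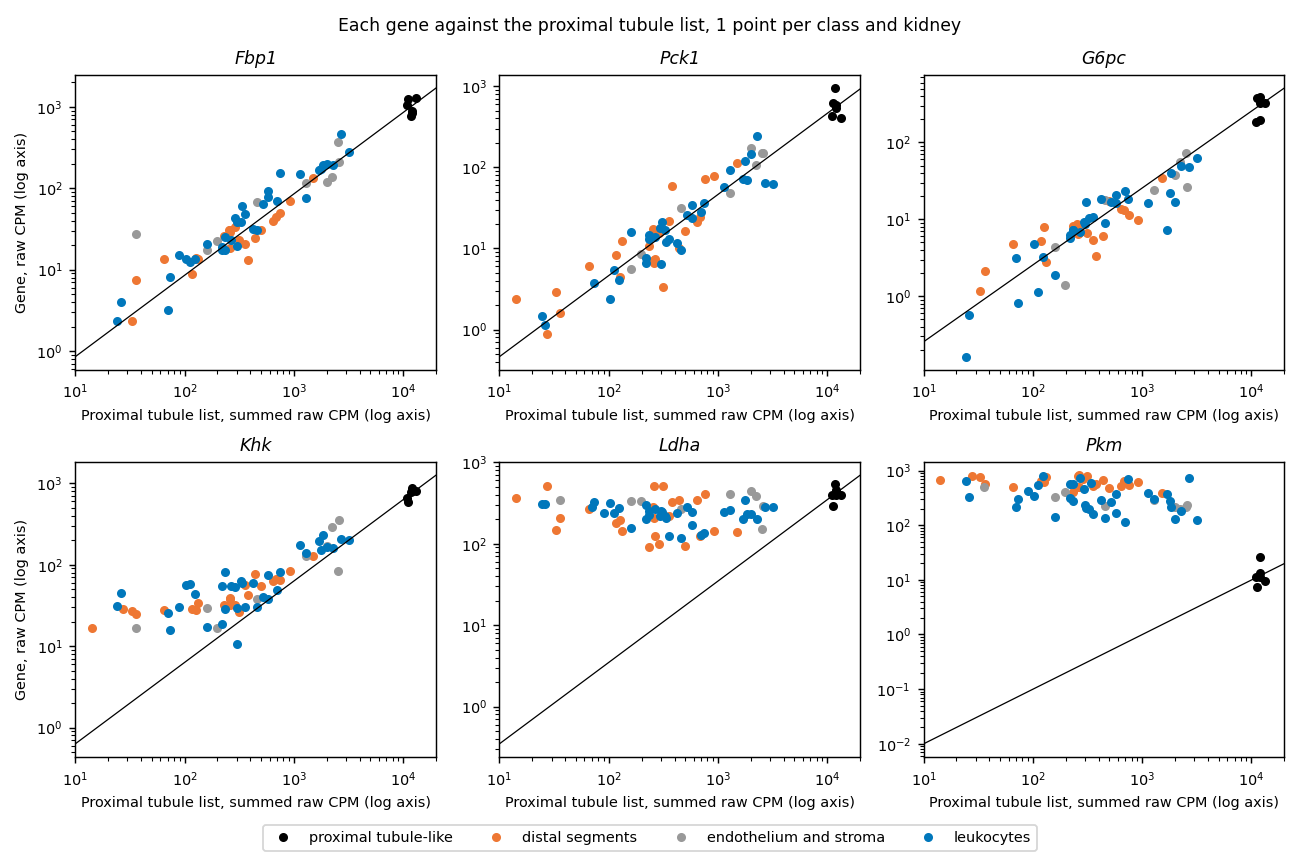
Level of Fbp1, Pck1, G6pc, Khk, Ldha, and Pkm against the summed level of 8 proximal tubule genes (both CPM without further scaling, both axes logarithmic), with 1 point per class and kidney of at least 20 cells and sums at 0 not drawn; the line marks the median ratio of proximal tubule-like cells. Fbp1, Pck1, and G6pc lie along the line from leukocytes to proximal tubule, while Ldha and Pkm do not follow it.

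Summed over the 4 gluconeogenic and fructose members, proximal tubule-like cells held 2638 ± 72.1 CPM in naive, 2496 ± 244 CPM in rejecting, and 2817 ± 17.0 CPM in tolerized kidneys (SD, n = 2 each). The 5 glycolytic members summed to 518 ± 55.9, 429 ± 6.86, and 364 ± 79.3 CPM in the same order. Most of this glycolytic sum was Ldha, at 292 to 538 CPM over the kidneys. Hk1, Hk2, Pkm, and Slc2a1 reached at most 2.70, 0.410, 25.7, and 10.4 CPM. These are sums of UMIs, given without a test. In all leukocytes the glycolytic sum was 904 ± 33.8 CPM in rejecting and 812 ± 257 CPM in tolerized kidneys.

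The first comparison asked whether the members differed between groups within proximal tubule-like cells, which numbered 4840, 3780, 2287, 1135, 3538, and 2408. These cells carried all 8 proximal genes in every kidney, the lowest at 114 CPM, and their proximal sum ranged from 10930 to 13220 CPM. These 8 genes were among the markers that named the class, so their presence was largely set by the naming. Naive and transplanted cells lay in separate clusters, with a naive share of at least 99.49% or at most 0.1998% in each cluster. Values of the members between groups are CPM after TMM scaling, which adjusts for overall composition. A gene is called at an FDR under 0.05 in the quasi-likelihood test of edgeR. The test was fitted to all 12630 genes that passed the filter and to all 6 kidneys. Hk2 did not pass the filter, so 8 members were tested.

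Of the 8 members, 3 were called lower in rejecting than in naive kidneys and none higher. Among all genes 42.0% were called, 22.6% higher and 19.3% lower, so the share of members called was near that of all genes. Ldha was at 548 and 626 TMM-scaled CPM in naive kidneys and at 342 and 347 in rejecting ones. Both naive values lay above both rejecting values, with a log2 fold change of -0.77 (SE 0.17, adjusted p = 0.00853 by edgeR). Khk was at 1056 and 899 against 697 and 570, likewise without overlap (-0.63, SE 0.19, adjusted p = 0.0310 by edgeR). The share of all genes without such overlap is not given here.

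Pck1, the committing enzyme, was at 631 and 1102 in naive and at 503 and 366 in rejecting kidneys. The groups did not overlap, although the naive pair lay far apart, and the log2 fold change was -1.0 (SE 0.34, adjusted p = 0.0415 by edgeR). Fbp1 was at 1011 and 899 against 769 and 909, where the groups overlapped (-0.19, adjusted p = 0.431 by edgeR). G6pc was at 383 and 226 against 338 and 160, and these ranges overlapped as well. Slc2a1 was at 5.97 and 4.36 against 8.31 and 8.36 from few UMIs, without overlap but with an adjusted p of 0.0777 by edgeR (log2 fold change 0.68). Pkm was at 13.6 and 15.7 against 22.2 and 9.77, and Hk1 at 2.10 and 2.29 against 2.33 and 1.18.

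In tolerized against naive kidneys 1 of 8 members was called, where 32.3% of all genes were called, 17.0% higher and 15.3% lower. That member was Ldha, at 369 and 306 in tolerized kidneys against the same 548 and 626 (log2 fold change -0.80, SE 0.17, adjusted p = 0.00992 by edgeR). Khk, at 746 and 620, gave -0.52 (adjusted p = 0.0722 by edgeR), and Pck1, at 374 and 652, gave -0.76 (adjusted p = 0.115 by edgeR). Fbp1 was at 1184 and 1290, above both naive values, with 0.37 (adjusted p = 0.143 by edgeR). Slc2a1 stood at 9.65 and 6.49 (0.64, adjusted p = 0.0991 by edgeR), and Pkm at 8.68 and 7.58 (-0.85, adjusted p = 0.0763 by edgeR). G6pc, at 299 and 401, and Hk1, at 1.78 and 2.04, were not called either (0.20 and -0.20). Both comparisons use the same naive kidneys, so their results are not independent.

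These calls depended on the scaling and on single kidneys. Fits with 1 naive kidney also called fewer genes over all in most comparisons. Without naive kidney 2 that count fell by more than 1.5 fold in 12 comparisons of tubular segments and did not in 3. With scaling by library size alone, chosen after the data were seen, the median log2 fold change of all genes moved from 0.06 to 0.51 in rejecting against naive kidneys, and the higher share of called genes from 54.0% to 82.0%. Ldha (-0.32), Khk (-0.18), and Pck1 (-0.55) kept their sign and were not called, and Slc2a1 (1.13, adjusted p = 0.0110 by edgeR) was the only member called. In tolerized against naive kidneys that scaling moved the median from 0.05 to 0.31 and the higher share from 52.7% to 76.0%, Ldha (-0.53) was not called, and Fbp1 (0.63, adjusted p = 0.0404 by edgeR) and Slc2a1 (0.91, adjusted p = 0.0336 by edgeR) were. Without naive kidney 2 no member was called against naive in either group: Ldha gave -0.69 and -0.70, Khk -0.75 and -0.63, and Pck1 -0.56 and -0.30 in rejecting and tolerized kidneys. Without naive kidney 1 the rejecting calls were Ldha (-0.88) and Pck1 (-1.36), without rejecting kidney 1 they were Ldha (-0.76) and Khk (-0.78), and without rejecting kidney 2 Ldha (-0.78) alone. In the tolerized comparison Pck1 (-1.21) replaced Ldha without tolerized kidney 2, and Pkm (-0.84) joined Ldha without either rejecting kidney, whose spread the fit shares.

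Other measures of these cells moved with the groups. Their median mitochondrial share was 25.4% and 24.8% for the naive group, 17.3% and 17.0% for the rejecting group, and 15% and 21% for the tolerized group, and their median UMIs were 3288, 3364, 4412, 4340, 7042, and 10510. Summed over 9 leukocyte genes (the leukocyte list without Cd74, which tubular cells can also make), the 2 naive kidneys had 3.01 and 9.01 CPM, the rejecting ones 429 and 118, and the tolerized ones 89.0 and 40.4. Their part in the results was not tested.

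**Figure D3:**
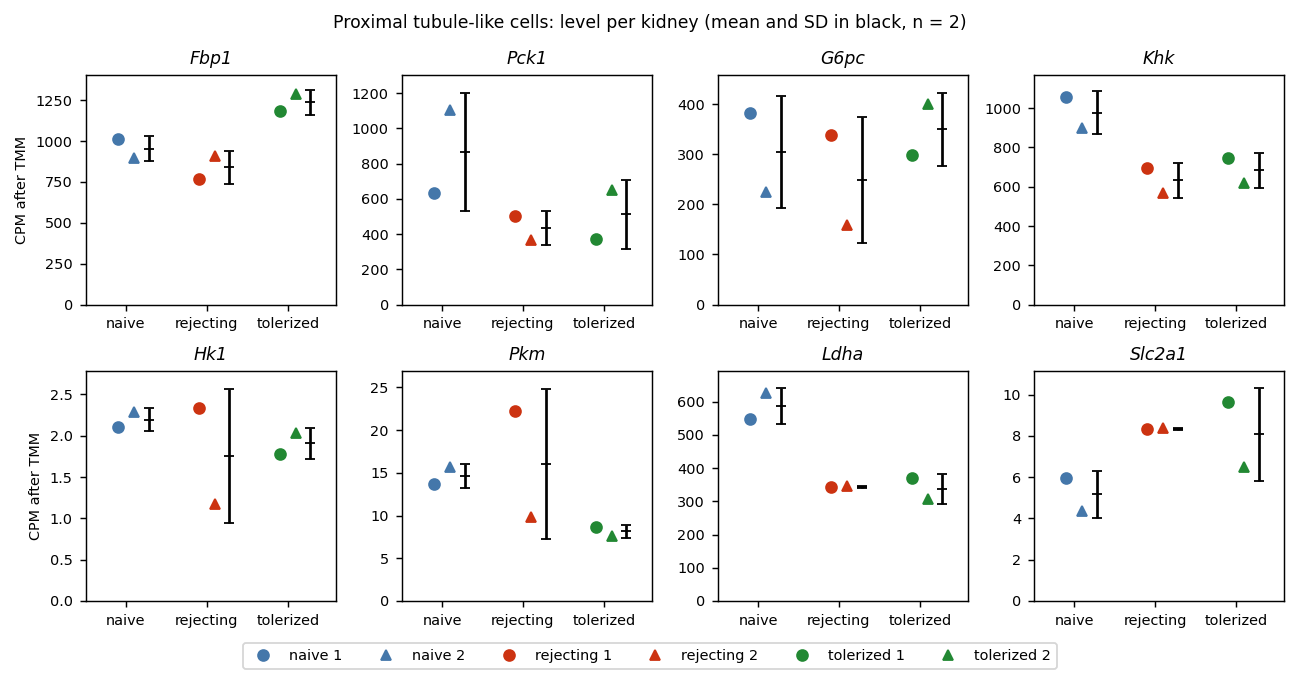
TMM-scaled CPM of the 8 tested members in proximal tubule-like cells, with 1 point per kidney and the mean and SD of each group (n = 2), every axis starting at 0. Both naive kidneys lie above all 4 transplanted kidneys for Ldha, and for Fbp1 both tolerized kidneys lie above the other 4.

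Tolerized and rejecting kidneys share strain, age, gene list, and CellRanger version, and here no member was called. Their experiments are not given, and their depth differed, with median UMIs of 7042 and 10510 in tolerized and 4412 and 4340 in rejecting proximal tubule-like cells. edgeR called 0 of 12630 genes (0.0%) in proximal tubule-like cells, with 1385 genes and 2 members at an unadjusted p under 0.05, whereas DESeq2 called 186 genes and no member. The 2 members were Fbp1, with 1184 and 1290 in tolerized and 769 and 909 in rejecting kidneys (log2 fold change 0.56, adjusted p = 0.299 by edgeR), and Pkm, with 8.68 and 7.58 against 22.2 and 9.77 (-1.0, adjusted p = 0.3 by edgeR). Neither overlapped between groups. With 2 kidneys a group such separation can arise without a difference, here and in the other comparisons. Its share over all genes was not counted. Without rejecting kidney 2 the Pkm change was -1.44. The highest Pkm belonged to rejecting kidney 1, whose proximal cells also had the most leukocyte RNA, and the part of that RNA was not tested. For Ldha, Khk, and Slc2a1 the tolerized and rejecting kidneys overlapped.

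In distal segments the tests called mostly the gluconeogenic and fructose members. In loop of Henle-like cells 5 of 8 members were called in rejecting against naive kidneys, where 17.3% of all genes were. Naive loops had Fbp1 at 31.5 and 145 TMM-scaled CPM, rejecting loops at 8.70 and 7.18, and tolerized loops at 13.3 and 26.6. It was thus lower in all transplanted loops than in either naive loop, with log2 fold changes of -3.37 (SE 0.63, adjusted p = 0.00323 by edgeR) in rejecting and -2.0 (SE 0.50, adjusted p = 0.0233 by edgeR) in tolerized kidneys. Pck1, G6pc, and Khk were called lower with -3.68, -2.85, and -1.84 in rejecting kidneys. In tolerized kidneys, where 11.0% of all genes were called, these 3 gave -2.96, -1.69, and -1.67 and were called too. All 4 tolerized calls were lost with cells of at most 20% mitochondrial UMIs, where Fbp1 gave -0.66, Pck1 -1.75, Khk -1.43, and G6pc turned to 0.16. They were also lost without naive kidney 2, where Fbp1 gave -0.62 and Pck1 -1.08, and without tolerized kidney 1. In the rejecting comparison the limit of 20% left Khk (-1.83) and Slc2a1 (2.17) as calls.

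The fall of these genes went along with that of the proximal markers: their sum in loop cells was 496 and 1504 CPM in the naive group, 118 and 36.1 in the rejecting group, and 128 and 232 in the tolerized group. As given above, Fbp1, Pck1, and G6pc in most distal sums lay within 0.5 to 2 times the ratio of proximal cells, and whether these calls came from the distal cells themselves was not tested. Other measures moved with the groups here too. Of naive loop cells 232 and 207 lay in 1 cluster, and 423, 266, 375, and 515 of the transplanted ones lay in another, and distal convoluted tubule-like and principal cell-like cells were divided in the same way. The median mitochondrial share of loop cells was 36.8% and 37.8% in the naive group against 25.7%, 25.6%, 23.8%, and 29.7%, and their leukocyte list without Cd74 summed to 10.1 and 12.1 CPM against 714, 262, 108, and 43.6 CPM. The part of these in the calls was not tested.

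Slc2a1 was the only glycolytic member called in a distal segment, at 38.0 and 46.0 in naive and 69.6 and 68.2 in rejecting loops. Every transplanted loop, tolerized ones at 69.4 and 58.5 included, lay above both naive loops (rejecting 0.73, SE 0.23, adjusted p = 0.0469 by edgeR; tolerized 0.62, adjusted p = 0.0996). The call was lost in each fit that left out 1 of the 6 kidneys, with the replicate block, and with the DESeq2 test. Hk1 had 133 and 140 in naive loops, 188 and 167 in rejecting loops, and 221 and 163 in tolerized loops, also without overlap between naive and transplanted kidneys, and was not called (adjusted p = 0.260 and 0.173 by edgeR).

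Distal convoluted tubule-like cells had 4 of 8 members called in rejecting against naive kidneys (23.2% of all genes), namely Fbp1 (-3.02), Pck1 (-2.91), G6pc (-2.72), and Khk (-1.50), and 2 of 8 in tolerized against naive kidneys (16.3%), Pck1 (-2.21) and Khk (-1.24). Their proximal sum went from 683 and 918 CPM in naive to 132 and 33.0 CPM in rejecting kidneys and to 262 and 290 CPM in tolerized ones. Principal cell-like cells had the same 4 called in the rejecting comparison (18.3% of all genes; -2.45, -4.74, -2.44, and -1.27) and Pck1 (-1.70) and Khk (-0.81) in the tolerized one (17.0%). With the DESeq2 test the principal cell calls were Pck1 and Khk in the rejecting and none in the tolerized comparison, and without rejecting kidney 2 Khk (-1.37) alone was called in the former. In intercalated cell-like cells (31 to 94 per kidney) edgeR called 0 of 7 members in rejecting kidneys (7.63% of all genes). There 1 member and 1713 of 7365 genes had an unadjusted p under 0.05, and DESeq2 called no member. In tolerized kidneys (6.04%) edgeR called Pck1 alone (-2.58, adjusted p = 0.0258 by edgeR). The change of Pck1 in rejecting kidneys was of like size and just missed the FDR (-2.56, adjusted p = 0.05045 by edgeR). Glycolytic members were not called in these 3 segments: in distal convoluted tubule-like cells, for example, Pkm stayed at 681 to 756 and Hk1 at 110 to 145 TMM-scaled CPM in all 6 kidneys. With library size scaling the higher share of called genes in distal convoluted tubule-like cells moved from 53.4% to 71.7% in rejecting and from 53.9% to 70.0% in tolerized kidneys, and in intercalated cells from 55.7% to 71.3% and from 56.6% to 70.0%.

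Between tolerized and rejecting kidneys 0 members were called in any distal segment by edgeR or DESeq2. edgeR called 0.475% of all genes in the loop, 0.0293% in the distal convoluted tubule, 0.0947% in principal cells, and 0.0136% in intercalated cells. At an unadjusted p under 0.05 there were 2, 2, 3, and 1 members in this order. The genes under the same threshold were 696 of 9682, 861 of 10245, 810 of 10557, and 470 of 7365.

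Injured cells were set as proximal tubule-like cells with at least 2 UMIs of Havcr1 (kidney injury molecule 1, a surface receptor that proximal cells make after damage). None of the 4840 and 3780 naive cells met this, and 41, 60, 210, and 28 cells of rejecting kidneys 1 and 2 and tolerized kidneys 1 and 2 did, or 1.79%, 5.29%, 5.94%, and 1.16%. They were compared with the other proximal tubule-like cells of the same kidney, with the kidney as a block. Of 8 members 3 were called, 2 lower and 1 higher, where 12.3% of all 10588 genes were called, 6.96% higher and 5.32% lower.

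G6pc had the largest change among the members in Havcr1-positive cells. In the pairs of Havcr1-positive and other cells it was at 212 and 381 TMM-scaled CPM in rejecting kidney 1, 110 and 186 in rejecting kidney 2, 176 and 350 in tolerized kidney 1, and 216 and 445 in tolerized kidney 2. All 4 kidneys fell (log2 fold change -0.92, SE 0.10, adjusted p = 1.735e-06 by edgeR). Fbp1 was at 601 and 862, 643 and 1059, 777 and 1378, and 994 and 1423 in the same order of pairs. It was lower in the Havcr1-positive cells of all 4 kidneys as well (-0.65, SE 0.09, adjusted p = 3.766e-05 by edgeR). Both calls held in every alternative tried for this comparison. A threshold of at least 1 UMI of Havcr1 gave the smallest changes, -0.57 for G6pc and -0.45 for Fbp1, and at least 3 UMIs the largest, -2.07 and -0.87. The share of cells from S3-like clusters, given below for 2 UMIs, is not given at these thresholds. S3-like clusters were left out at the threshold of 2 UMIs only.

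Slc2a1 went the other way in 3 of 4 kidneys, at 30.5 and 8.34, 18.3 and 8.14, 15.3 and 10.0, and 5.08 and 7.16 in the pairs. It was called higher (0.86, SE 0.26, adjusted p = 0.0325 by edgeR), and tolerized kidney 2, with 28 such cells, was the exception. The call was lost with the DESeq2 test (0.89, adjusted p = 0.114), without S3-like clusters (0.66, adjusted p = 0.124 by edgeR), and without rejecting kidney 1 (0.59), rejecting kidney 2 (0.78), or tolerized kidney 1 (1.08).

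Pck1 did not follow G6pc and Fbp1. Its pairs were 520 and 559, 382 and 410, 467 and 406, and 820 and 711, lower in both rejecting and higher in both tolerized kidneys, and the log2 fold change was 0.06. Khk was at 809 and 770, 632 and 634, 797 and 828, and 1042 and 669 (0.16, adjusted p = 0.416 by edgeR). Ldha was at 400 and 378, 412 and 382, 396 and 410, and 400 and 333 (0.10). None of these 3 was called. Pkm gave 0.27 and Hk1 0.77 from few UMIs, and neither was called. Cells with at least 5000 UMIs, an alternative added after the data were seen, gave Pkm as a further call (0.68, adjusted p = 0.0449 by edgeR).

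Havcr1-positive cells differed from the others in depth and segment. Called doublets had been left out. Median UMIs of the remaining cells were 12480, 10850, 17610, and 26980 against 4322, 4088, 6665, and 10400. The sum of proximal genes was 9388, 8604, 10840, and 9647 CPM against 12140, 11210, 13530, and 11210. S3-like clusters, the late straight part of the tubule, held 26.8%, 15%, 24.8%, and 28.6% of them but 2.36%, 1.86%, 3.91%, and 0.630% of the others. Without S3-like clusters G6pc was lower by -0.64 (adjusted p = 0.000169 by edgeR) and Fbp1 by -0.67, both called, and with at least 5000 UMIs they gave -0.96 and -0.61, also called.

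**Figure D4:**
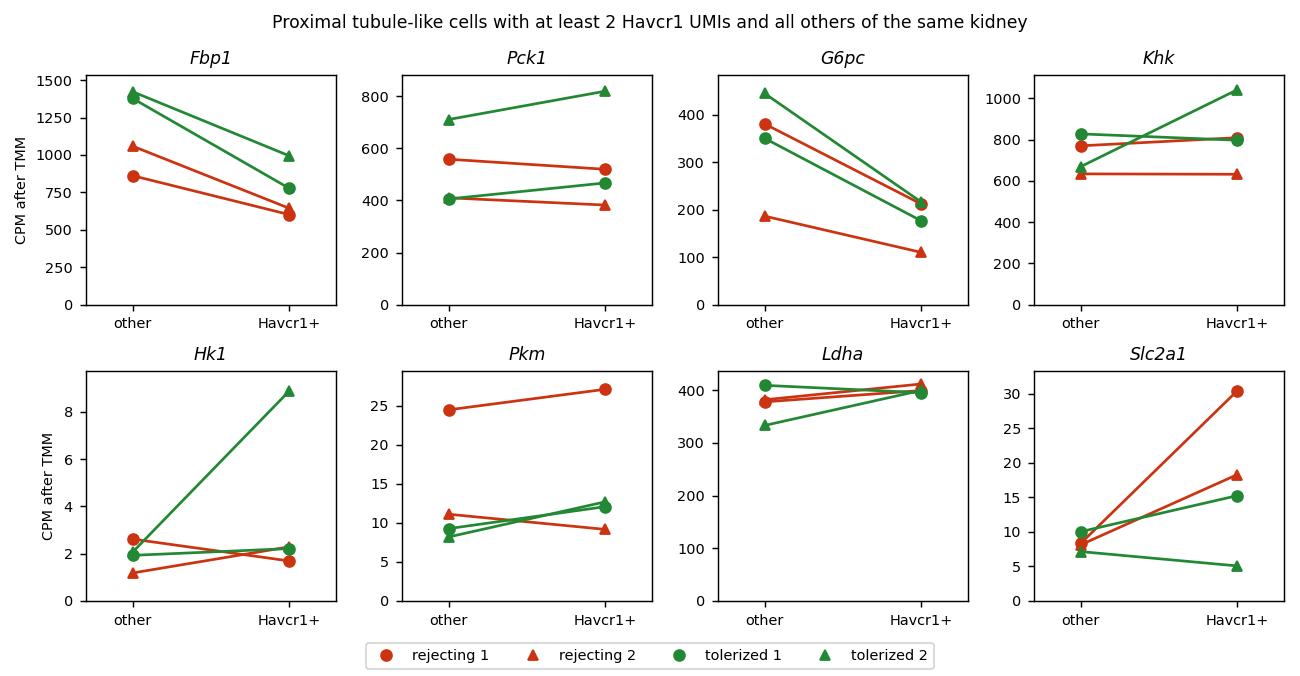
TMM-scaled CPM of each member in other and in Havcr1-positive proximal tubule-like cells, joined for each of the 4 transplanted kidneys, every axis starting at 0. The lines of Fbp1 and G6pc fall in all 4 kidneys, and Slc2a1 rises in 3 of them.

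Within the Havcr1-positive cells no member was called between tolerized and rejecting kidneys. edgeR tested 6 members and called 0 of 7113 genes (0.0%), with 550 genes at an unadjusted p under 0.05, and DESeq2 called 13 genes and no member. Fbp1 was the only member at an unadjusted p under 0.05, at 807 and 1023 in the tolerized group against 630 and 674 (0.49). The others gave 0.49 for Pck1, 0.28 for G6pc, 0.33 for Khk, -0.05 for Ldha, and -0.94 for Slc2a1, while Hk1, Hk2, and Pkm did not pass the filter. With 28 to 210 cells per kidney these sums limit what can be detected.

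The 2 S3-like clusters held less G6pc and Fbp1 and more Hk1 and Pkm than the other proximal tubule-like clusters. They had 88, 109, 64, 29, 182, and 23 cells, and because clusters were made from the same cells this is a description, without a test. The other clusters were not free of S3 marker genes. Slc22a30 and Atp11a were among the leading genes of a naive cluster of 1666 cells (doublets included), and Slc7a13 in another of 2089. At a resolution of 0.8 the S3-like cluster held 102, 127, 37, 20, 79, and 8 cells. The comparison is therefore between clusters and need not separate the segments. G6pc was at 55.9, 37.6, 93.6, 19.2, 57.9, and 50.4 CPM in S3-like cells and at 326, 200, 400, 190, 338, and 387 CPM in the rest. All 6 kidneys were lower in S3-like cells, and the ranges did not overlap. Khk was at 1026, 749, 1112, 1103, 991, and 1067 CPM in S3-like cells against 884, 774, 796, 647, 793, and 586 CPM, higher in 5 of 6 kidneys. Fbp1 was at 651, 452, 735, 1021, 940, and 859 CPM against 852, 784, 895, 1055, 1296, and 1236 CPM, lower in all 6. Hk1 was at 2.79 to 19.2 CPM, from 1 to 12 UMIs per kidney, against 0.843 to 2.57 CPM, so these ranges did not overlap. The 4 distal markers summed to 137, 107, 104, 19.2, 59.9, and 108 CPM in S3-like cells and to 99.3, 131, 78.4, 55.2, 75.3, and 127 CPM in the rest, without a common direction. Pkm was at 18.1 to 30.7 CPM against 7.05 to 25.6 CPM, higher in S3-like cells of every kidney. Slc2a1 was at 4.80 to 26.1 CPM against 3.67 to 10.1 CPM, and Ldha at 399 to 461 CPM against 291 to 543 CPM. Hk2 had 1 UMI in all S3-like cells. Pck1 had no common direction, at 260, 582, 407, 547, 454, and 678 CPM against 535, 961, 588, 420, 400, and 622 CPM, lower in S3-like cells of naive kidneys and rejecting kidney 1 and higher in the other 3.

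Leukocyte classes were compared between tolerized and rejecting kidneys only, since naive kidneys held few of them. In macrophage-like cells (1963, 1450, 1121, and 369) edgeR called 0 of 9 members and 0 of 11579 genes (0.0%), with no member and 481 genes at an unadjusted p under 0.05, and DESeq2 called 28 genes and no member. Hk2 was at 40.4 and 118 TMM-scaled CPM in rejecting and at 168 and 72.0 in tolerized kidneys. The kidneys of each group lay far apart and overlapped (log2 fold change 0.61, SE 0.56). Hk1 was at 24.7 and 27.6 against 30.1 and 17.5, and Khk at 52.7 and 30.6 against 44.0 and 56.7. Fbp1 (1.20), Pck1 (0.50), and G6pc (0.84) had SEs of 0.98, 1.04, and 1.22. Pkm was at 710 and 628 against 800 and 480 (-0.06), Ldha at 262 and 299 against 278 and 233, and Slc2a1 at 34.2 and 37.6 against 31.4 and 26.1, where the tolerized values were the lower ones.

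T cell-like cells (3355, 2501, 1632, and 872) likewise had 0 of 9 members and 0 of 11257 genes called by edgeR (0.0%), with 1 member and 922 genes at an unadjusted p under 0.05, and DESeq2 called 38 genes and no member. Rejecting kidney 1 stood apart in both classes. Of its T cell-like cells 1991 lay in 1 cluster, whose cells had 914 UMIs at the median and a mitochondrial share of 20.3%, and to which the other 3 kidneys gave 151, 47, and 69 cells, and the median of all its T cell-like cells was 1291 UMIs against 2693 to 4802. Of its macrophage-like cells 877 lay in a cluster with a median of 970 UMIs, against 175, 162, and 92 of the others. Without rejecting kidney 1 no member was called in T cell-like cells either.

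In T cell-like cells of the rejecting group Hk1 was at 46.4 and 50, compared with 48.4 and 47.3 for the tolerized group, and Pkm at 258 and 299 against 319 and 283. Ldha was at 236 and 316 against 309 and 300, with overlap for all 3. Hk2 (0.21), Slc2a1 (-0.12), Khk (0.54), Pck1 (0.95), and G6pc (1.67) were not called. The member at an unadjusted p under 0.05 was Fbp1, at 16.3 and 7.91 against 17.8 and 68.7 (1.81, adjusted p = 0.504 by edgeR), in cells whose proximal gene sum was 232 and 73.8 against 219 and 519 CPM. Without tolerized kidney 1 Fbp1 gave 2.46, G6pc 2.23, and Pck1 1.64 there, in a fit that sets 1 tolerized kidney against 2 rejecting ones. That fit takes its spread from the rejecting pair alone, so its calls are not read as a result. These 3 members were not called in the other 3 fits that left out a kidney.

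The wider pathway was followed with 4 lists of other genes, described by their counts and not by a test of the list. CPM of list genes are without further scaling, whereas their log2 fold changes are after TMM scaling. The TMM factors of proximal tubule-like cells were 0.84 and 0.861 in naive and 1.16 and 1.16 in rejecting kidneys. Unscaled levels therefore show larger rises than the log2 fold changes in that comparison. Of 19 other genes of gluconeogenesis and fructose use, 18 were tested in proximal tubule-like cells, and 4 rose and 6 fell in rejecting against naive kidneys (22.6% and 19.3% of all genes), with a median log2 fold change of -0.41 against 0.06 for all genes. Those with the smallest adjusted p were the glucose-6-phosphate carrier Slc37a4 (-0.82), the aspartate aminotransferase Got1 (0.85), the triokinase Tkfc (-0.64), the second fructose bisphosphatase Fbp2 (0.82), and the malate dehydrogenase Mdh1 (-0.65). With library size scaling 6 rose and none fell, the 6 lower calls were lost without a change of sign, and without naive kidney 2 the counts were 1 and 1. Got1 was at 40.7 and 43.5 CPM in naive and at 89.7, 118, 103, and 98.3 CPM in transplanted kidneys, so that all 4 transplanted kidneys were higher. In tolerized against naive kidneys 5 rose and 1 fell by count of the same list (17.0% and 15.3% of all genes): Got1 (1.01), Glud1 (0.90), Pcx (0.81), Gpt (-1.05), and Fbp2 (0.70) led, where Pcx is pyruvate carboxylase and Glud1 glutamate dehydrogenase. With library size scaling this became 6 and 0, and without naive kidney 2 it became 2 and 0. Among all genes that scaling called 5152 higher and 1128 lower in the rejecting comparison. In the tolerized comparison it called 3410 higher and 1080 lower.

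Of 28 other genes of glycolysis and lactate use 23 were tested. In rejecting against naive kidneys 7 rose and 2 fell (22.6% and 19.3% of all genes), with a median of 0.13 against 0.06 for all genes. The phosphoglycerate kinase Pgk1 was at 6.01 and 17.9 CPM in naive and at 287, 307, 303, and 268 CPM in transplanted kidneys (log2 fold change 4.21 in rejecting and 4.34 in tolerized kidneys). This gap was not a feature of the tubule, since over all classes Pgk1 lay between 0 and 23 CPM in the 22 naive sums and between 70.6 and 512 CPM in the 53 transplanted ones. Pfkp, a phosphofructokinase, was at 2.05 and 2.89 against 38.3, 47.5, 41.0, and 16.8 CPM (3.68 and 3.27). Pdk4, a kinase that shuts pyruvate dehydrogenase and thereby spares pyruvate, was at 3.58 and 5.52 against 98.3, 69.3, 73.4, and 29.4 CPM (3.78 and 3.22). For each of these the lowest transplanted kidney lay above the highest naive one in proximal tubule-like cells. Pfkp did so in loop of Henle-like cells too, at 88.6 and 79.0 against 177, 167, 171, and 111 CPM. In distal convoluted tubule-like cells Pfkp overlapped, at 63.3 and 79.5 against 109.7, 85.2, 93.35, and 70.25 CPM. Over all classes its median was 37.9 CPM in naive and 87.4 CPM in transplanted sums. Pdk2 fell in rejecting kidneys (-1.08), and Hk3, a hexokinase of myeloid cells, had no UMI in naive proximal sums and 1.45, 0.682, 0.366, and 0.0823 CPM in transplanted ones. In tolerized kidneys 4 rose, with Gpi1 (0.64) as the fourth, and none fell (17.0% and 15.3% of all genes). Library size scaling gave 8 higher and 1 lower in the rejecting comparison and 5 higher and 0 lower in the tolerized one. That scaling called 5152 and 3410 of 12630 genes higher in these comparisons. Without naive kidney 2 it was 4 higher and 1 lower in the former and 3 higher and 0 lower in the latter.

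Among 6 carriers of glucose, fructose, and lactate in the tubule none rose and 2 fell in rejecting kidneys (22.6% and 19.3% of all genes). They were Slc5a8 (-1.17), a sodium-coupled lactate carrier, and Slc2a5 (-0.71), the fructose carrier GLUT5. In tolerized kidneys Slc5a8 (-1.15) alone fell (15.3% of all genes). With library size scaling 1 rose and 1 fell in each comparison, and without naive kidney 2 1 rose and 1 fell in the rejecting comparison and none in the tolerized one. Of 16 regulators 4 rose and 2 fell in rejecting kidneys with TMM scaling (22.6% and 19.3% of all genes). Myc, a transcription factor that drives glycolytic genes, had 3.44 and 2.63 CPM in the naive, 15 and 12 CPM in the rejecting, and 4.90 and 3.43 CPM in the tolerized group, so that both rejecting kidneys stood above the other 4 (1.70 against naive, adjusted p = 0.00174 by edgeR). Ppara (1.40), Creb1 (0.59), and Irs2 (0.74) rose as well, and Epas1 (-0.78) was among those that fell. In tolerized kidneys 2 rose, Irs2 (0.99) and Ppara (1.19), and 1 fell (17.0% and 15.3% of all genes). Library size scaling gave 8 higher regulators in the rejecting and 6 in the tolerized comparison, where 5152 and 3410 of 12630 genes were called higher. Without naive kidney 2 there were 2 and 0 higher regulators, and none was lower in any of these fits. Between tolerized and rejecting kidneys edgeR called no gene of the 4 lists in proximal tubule-like cells.

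In Havcr1-positive cells the other gluconeogenic genes fell more often than they rose: 9 of 18 were lower and 1 was higher (5.32% and 6.96% of all genes), with a median of -0.35 against -0.003 for all genes. The lower ones included Pcx (-0.83), Got1 (-0.68), Glud1 (-0.55), and Mdh1 (-0.48). Without S3-like clusters the counts were 7 and 1, and with library size scaling 6 and 1. Of 20 glycolytic genes tested 2 rose, Pfkp (0.67) and Pdk4 (0.72), and 2 fell, Slc16a1 (-1.11), the lactate carrier MCT1, and Pgk1 (-0.33), whose call was lost without S3-like clusters and with library size scaling.

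Glucose carriers moved in both directions in the same comparison, where 6.96% of all genes were called higher and 5.32% lower. Slc5a2 (SGLT2), the carrier of the early tubule, fell by 2.86 on the log2 scale, and the basolateral carrier Slc2a2 (GLUT2) fell by 1.06. Slc5a1 (SGLT1), the carrier of the late tubule, rose by 1.03, and Slc5a8 by 1.16. Without S3-like clusters these gave -2.58, -0.82, 0.72, and 0.87 and were called again. Slc2a5 was called higher at 1.22 but turned to -0.56, not called, without S3-like clusters. Among 15 regulators tested 2 rose, with Myc (1.02) as 1 of them, and 2 fell, Ppargc1a (-0.58) and Nr3c1 (-0.38), of which the latter pair was lost without S3-like clusters.

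Over 75 sums of 1 class and 1 kidney and 8804 genes, the genes whose log2(CPM + 1) followed that of Fbp1 most closely included Slc34a1 (Pearson r = 0.965), Miox (0.944), Kcnj15 (0.944), and Kap (0.928). For Ldha the closest were Calm3 (0.734), Rer1 (0.655), Vps29 (0.641), Mat2a (0.633), and Fkbp8 (0.598). These are descriptions over sums that share libraries and depth, and Slc34a1 and Miox also belong to the proximal genes used above.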

How the data were processed

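Single cells of 2 naive, 2 rejecting, and 2 tolerized kidneys were measured, with 1 library per kidney. The authors deposited 1 matrix of raw UMI counts per gene and barcode for each kidney, aligned to mm10 and counted with CellRanger without normalization. The submitters' processing notes name Cell Ranger and bcl2fastq. The study removed doublets with DoubletDecon and kept fewer cells than were kept here.

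A cell was kept when it had 500 or more UMIs, 250 or more genes, and no more than 50% mitochondrial UMIs. Scrublet, run in scanpy 1.11.5 on each kidney, called only 0 to 282 doublets by its own threshold. Cells with the top scores, 0.8% for every 1000 barcodes, were therefore taken as doublets and left out after clustering. Leiden clustering (resolution 1.5, with leidenalg 0.10.2 and igraph 0.11.9) used 2500 variable genes among those shared by the matrices and not members, with 40 principal components and 20 neighbors. It gave 46 clusters, of which 37 were named. A name needed 3 markers, each in at least 10% of cells and at 2 times the median cluster. The median replaced the mean after the data were seen. The 4 distal markers of the ratio to distal segments were likewise set after values were seen.

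For each class with at least 10 cells in a kidney, UMI counts were summed, filtered with filterByExpr, scaled by TMM, and compared in edgeR 4.0.16 by its quasi-likelihood test with Benjamini-Hochberg adjustment over all genes tested, at an FDR of 0.05. DESeq2 1.42.0 was an alternative. The edgeR step was tested on simulated data for proximal tubule-like cells of rejecting against naive kidneys. The simulation had 12385 genes, and 200 genes were set to change. Of the genes changed by a log2 of 1 edgeR called 34.8%, and of those changed by 2 it called 88.0%. In the data 42.0% of genes were called in that comparison, so these shares need not hold there. Precision is limited by 2 kidneys per group and by depth per class, and intervals and floors cover counting error only. Scripts ran in R 4.3.3 (with limma 3.58.1) and in Python 3.11.15 with scipy 1.17.1, numpy 2.4.6, matplotlib 3.10.9, and pandas 2.3.3. GENCODE release M21 gave the gene positions on GRCm38, and promoters are from RefSeq for GRCm38.p6.

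The members and lists were chosen with earlier results of these data known. The levels of all 9 members were computed in every class and kidney, and from each list up to 5 genes with the smallest adjusted p in proximal tubule-like cells. A few genes that these rules name are counted but not reported here. Other settings tried were DESeq2's size factors or its test, no filter on low counts, a minimum of 1000 UMIs, a maximum of 20% mitochondrial UMIs, clustering at a resolution of 0.8, doublets kept, Havcr1-positive cells left out, other Havcr1 thresholds, CPM over nuclear genes, a replicate block, and leaving out each kidney. Library size scaling, S3-like clusters left out, at least 5000 UMIs, and a crossed replicate block were added after the data were seen.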

Additional observations from a re-analysis of the deposited data

How the results depend on the processing

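Each comparison rests on 2 kidneys per group. Some members had few UMIs, namely Hk1, Pkm, and Slc2a1 in proximal tubule-like cells and Hk2 outside myeloid cells. Whether depth limited their comparisons was not tested. In proximal tubule-like cells the 3 calls in rejecting against naive kidneys became 1 with library size scaling only and 0 to 3 when 1 kidney was left out. The 1 call in tolerized against naive kidneys became 2 with the DESeq2 test, 4 without the filter on low counts, 2 with library size scaling only, and 0 to 2 when 1 kidney was left out. The 0 calls in tolerized against rejecting kidneys became 1 without the filter and 0 to 1 when 1 kidney was left out. Over nuclear genes only, the gluconeogenic sums of naive, rejecting, and tolerized kidneys were 3554.5, 3017, and 3532.5 CPM, and the glycolytic sums 697.8, 519.2, and 452.3 CPM, since mitochondrial UMIs leave the total.

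In loop of Henle-like cells the rejecting count of 5 became 2 at 20% mitochondrial UMIs and 3 to 4 when 1 kidney was left out. The tolerized count of 4 became 2 with the DESeq2 test, 0 at 20% mitochondrial UMIs, and 0 to 4 when 1 kidney was left out, being 0 without naive kidney 2 or tolerized kidney 1. In tolerized against rejecting loops 0 became 1 without the filter. Distal convoluted tubule-like cells went from 2 to 1 with the DESeq2 test and to 1 to 3 when 1 kidney was left out in the tolerized comparison, and from 0 to 2 without the filter between tolerized and rejecting kidneys. Principal cells went from 4 to 2 with the DESeq2 test or 20% mitochondrial UMIs and to 1 to 4 when 1 kidney was left out in the rejecting comparison, being 1 without rejecting kidney 2. In the tolerized comparison they went from 2 to 0 with the DESeq2 test and to 0 to 2 when 1 kidney was left out. Between tolerized and rejecting kidneys they went from 0 to 0 to 1 when 1 kidney was left out. Intercalated cells went from 0 to 1 with DESeq2's size factors, to 1 without the filter, and to 0 to 1 when 1 kidney was left out in the rejecting comparison, and from 1 to 0 at 20% mitochondrial UMIs and 0 to 1 when 1 kidney was left out in the tolerized one. In T cell-like cells 0 became 2 without the filter and 0 to 3 when 1 kidney was left out. The 3 calls in Havcr1-positive cells became 2 to 3 when 1 kidney was left out. As given above, fits with 1 naive kidney also called fewer genes over all in most comparisons. A move of the count of all genes means more than 1.5 fold, or up from 0. Without the filter it rose in 10 comparisons and did not move in 9. With the DESeq2 test it rose in 7, fell in 4, and did not move in 8. At 20% mitochondrial UMIs it fell in 8 and did not move in 10. The counts of members above stand without the share of all genes in the same fit, so they are not read as specific to the members. The cause of these shifts was not tested.

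Among single log2 fold changes, G6pc in the loop of Henle turned from -1.69 to 0.16 (tolerized against naive) at 20% mitochondrial UMIs, Pkm in proximal tubule-like cells from 0.16 to -0.58 (rejecting against naive) without rejecting kidney 1, with 0.60 without rejecting kidney 2, and Slc2a5 in Havcr1-positive cells from 1.22 to -0.56 without S3-like clusters. Of 1872 log2 fold changes of members under an alternative, 95 changed sign while past the FDR in neither fit. Samples share replicate numbers, but the correlation of same-numbered deviations was between -0.123 and 0.078 in tubular classes, and the numbers were not taken to pair the kidneys. The labels do not say whether a number marks 1 of the separate experiments of the study, so a shared batch remains possible. With the replicate block the count was 3 in distal convoluted tubule-like cells of tolerized against naive kidneys (2 without it) and 4 in the loop of rejecting against naive kidneys (5 without it), and it changed no other count of members. The correlation was -0.333 in macrophage-like and -0.197 in T cell-like cells, and a crossed replicate block, added after the data were seen, called 0 members and 30 genes in the former and 1 member and 67 genes in the latter. This block joined rejecting and tolerized kidneys of unlike replicate number, the pairing that a negative correlation favours. No label gives that pairing, so these calls are not read as a result.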
